A study of Saccharomyces cerevisiae with 16 samples.

Results

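The genes described here are 10 of the 6074 genes on whole-genome arrays of Saccharomyces cerevisiae that act in phosphate transport and in the storage of phosphate as polyphosphate. They were chosen by name, through the systematic ORF names YML123C (PHO84), YBR296C (PHO89), YCR098C (GIT1), YJL117W (PHO86), YGR233C (PHO81), YHR136C (SPL2), YDR281C (PHM6), YER072W (VTC1), YPL019C (VTC3) and YJL012C (VTC4). Each had 1 entry in the deposited table, and all 10 were among the 5147 genes tested. The values are log2 ratios of mutant over wild type, so that -1 is a halving relative to wild type. The arrays compare wild type with 4 mutants, with 4 arrays for each mutant. The groups are labelled set1, which lacks the histone H3 lysine 4 methyltransferase Set1, and H3K4A, in which that lysine of histone H3 is replaced by alanine. The double mutant set1htz1 also lacks HTZ1, the gene for histone variant H2A.Z, and the triple mutant set1htz1sir2 additionally lacks SIR2, the gene for the histone deacetylase of silent chromatin. All cultures, mutant and paired wild type, grew exponentially at 30 °C in rich medium with tryptophan and adenine added, and were collected at an OD600 of 0.7. The sources used here do not state strain background, marker genotypes, mating type or how many clones stand for each mutant.

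Budding yeast takes up inorganic phosphate through transporters in the plasma membrane and keeps a reserve of it as polyphosphate chains in the vacuole. When phosphate is plentiful, the cyclin-dependent kinase Pho85 with its cyclin Pho80 phosphorylates the transcription factor Pho4 and so keeps it out of the nucleus. When phosphate runs short, the inhibitor Pho81 blocks the kinase, and Pho4 enters the nucleus and, with Pho2, activates genes for high-affinity transporters, secreted acid phosphatases and the polyphosphate polymerase. Several of these promoters, that of the acid phosphatase gene PHO5 above all, are long-standing models of how chromatin controls transcription.

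The arrays held between 5385 and 5802 values each, with medians between -0.04 and 0.03. The RNA of the deleted genes was low where the labels place the deletions, with a mean log2 ratio of SET1 of -2.67, -2.34 and -2.31 in set1, set1htz1 and set1htz1sir2, of HTZ1 of -2.94 in set1htz1, and of SIR2 of -2.44 in set1htz1sir2 and -0.10 in set1htz1. HTZ1 had no value in the triple mutant. The position of these probes relative to the deletions is not stated. On 2 arrays of each group the mutant was labelled with Cy5 and on the other 2 with Cy3. Across all genes, pairs of set1 arrays with opposite dyes had correlations between -0.27 and 0.09, and pairs with the same dye between 0.73 and 0.80. Opposite-dye pairs had 0.65 to 0.82 in set1htz1 and 0.75 to 0.80 in set1htz1sir2. H3K4A had the lowest same-dye correlations of the 4 groups, 0.09 and 0.36, with -0.28 to 0.61 between opposite dyes. Dye is therefore given beside the members it touches. In a bulk culture, a lower ratio in every cell cannot be told apart from a larger fall in a part of the cells.

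SPL2, PHO89, PHM6 and PHO84, which fell in the double mutant, were 1.60 to 3.12 times higher in the triple than in the double mutant. The 10 members and the other gene lists were chosen with earlier results of these data known. The shares over all tested genes set beside their counts are therefore a description and no independent test. In set1htz1, 8 of the 10 members fell, against 26.3% of all tested genes that fell, and the fitted log2 ratios of the 10 had a median of -0.68 against -0.04 over all tested genes. None was called higher by limma there, nor at an unadjusted p under 0.05, where 21.2% and 23.9% of all tested genes were higher. The same 8, all but GIT1 and VTC1, were below 0 on every array with a value, as were 33.6% of all tested genes. In set1htz1sir2 only 4 of the 10 were called lower, where again 26.3% of all tested genes fell, and 3 were called higher against 24.1% of all. Compared directly, 4 members were higher in the triple than in the double mutant, the genes just named, where 7.25% of all tested genes were higher. No member was called lower there by limma, nor was any lower at an unadjusted p under 0.05, against 5.4% and 11.4% of all tested genes. At the unadjusted threshold 9 of the 10 were higher, against 15.6% of all tested genes. All 10 differences were above 0, from 0.21 to 1.64, with a median of 0.53 against 0.02 over all tested genes. Of all genes called in this comparison 57.3% were higher with the ratios as deposited and 44.4% after quantile normalization, which lowered the number of genes called from 651 to 243 and left the count of called members at 4.

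**Figure D1:**
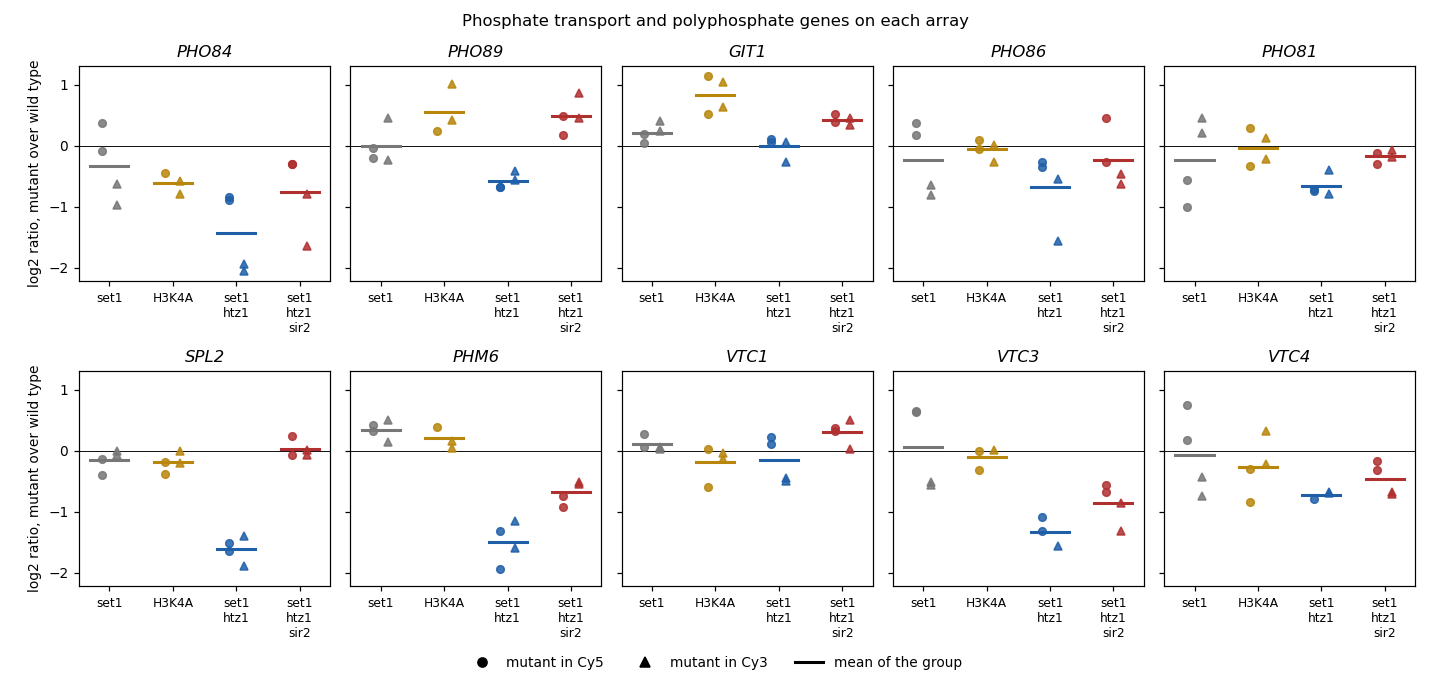
Log2 ratio of mutant over wild type (vertical axis) for each of the 10 genes on every array of the 4 mutants (horizontal axis). Circles mark arrays with the mutant in Cy5, triangles arrays with the mutant in Cy3, and bars the mean of the group. SPL2 lies between -1.89 and -1.40 on the arrays of set1htz1 and between -0.07 and 0.25 on those of set1htz1sir2, and in PHO84 the Cy3 arrays lie below the Cy5 arrays.

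Each mutant was hybridised against its own paired wild-type cultures. The double and the triple mutant also differed at a gene outside the phosphate system that serves as a marker in many laboratory strains: LYS2 had a fitted log2 ratio of 2.65 in set1htz1, from 3 arrays, and of 0.22 in set1htz1sir2. MET17, another such gene, was at -6.39 and -5.89, near the lowest ratio in the files, in both. The loss of SIR2 cannot be told apart from further differences between these strains.

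SPL2 encodes a small protein that lowers phosphate uptake through the low-affinity transporters when phosphate is scarce. Its log2 ratios in set1htz1 were -1.51, -1.89, -1.64 and -1.40 on arrays 1 to 4. In set1htz1sir2 they were 0.25, 0.01, -0.07 and -0.06. The groups did not overlap, with a gap of 1.33 between the highest double-mutant and the lowest triple-mutant array. The double mutant thus had 32.8% of the wild-type level and the triple mutant 102%. The difference of 1.64 ± 0.14 (limma standard error, here and below) was a 3.12-fold higher level in the triple mutant (adjusted p = 1.6e-07), which placed SPL2 as number 4 from the top among the 5147 genes. It was 1.67 on the arrays with the mutant in Cy5 and 1.62 on those with the mutant in Cy3. The single mutants were close to wild type, with SPL2 at -0.14, 0.00, -0.40 and -0.07 in set1 and at -0.38, -0.19, -0.18 and -0.001 in H3K4A, and neither was called. The triple mutant differed from set1 by 0.19 with a 95% interval from -0.10 to 0.47 (adjusted p = 0.34). In order of level, set1htz1 was lowest and its arrays overlapped with those of no other mutant, while the ranges of the other 3 mutants overlapped.

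PHO89 encodes the sodium-coupled high-affinity phosphate transporter, which works at alkaline pH. Its log2 ratios were -0.67, -0.42, -0.67 and -0.56 in set1htz1. In set1htz1sir2 they were 0.49, 0.45, 0.18 and 0.86. Every array of the double mutant lay below 0 and every array of the triple mutant above it. PHO89 fell by 0.58 ± 0.12 in the double mutant (adjusted p = 0.00059) and rose by 0.50 ± 0.12 in the triple mutant (adjusted p = 0.0019). The difference between them was 1.08 ± 0.17 (2.11-fold, adjusted p = 0.00024), with 1.01 in the Cy5 and 1.15 in the Cy3 orientation, and PHO89 was number 27 from the top of all tested genes. In set1 it ranged from -0.23 to 0.45 around a mean of -0.01 ± 0.31 (SD, n = 4).

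PHO84 encodes the proton-coupled high-affinity transporter, the main route of phosphate uptake in starved cells. On arrays 1 to 4 its log2 ratios in set1htz1 were -0.89, -1.94, -0.84 and -2.06. In set1htz1sir2 they were -0.29, -0.79, -0.29 and -1.64. Arrays with the mutant in Cy3, numbers 2 and 4, were lower in both groups, and the groups overlapped when the dyes were pooled. Within each dye orientation they did not overlap, the triple mutant being higher by 0.58 in Cy5 and by 0.79 in Cy3. The dye term of PHO84, shared by all groups, was 0.86 (Cy5 minus Cy3, adjusted p = 0.00048). With that term fitted, the triple mutant was higher by 0.68 ± 0.19 (1.60-fold, adjusted p = 0.025). After quantile normalization the difference was 1.04 (adjusted p = 0.0027). Without the dye term the adjusted p was 0.26, and it lay between 0.066 and 0.090 without replicate 2 or 4 of set1htz1 or without replicate 1, 2 or 3 of set1htz1sir2. The fall against wild type was called in both, at -1.43 ± 0.13 in the double (adjusted p = 2.1e-07) and -0.75 ± 0.13 in the triple mutant (adjusted p = 0.00016), which correspond to 37.0% and 59.4% of the wild-type level. In set1 the arrays read -0.09, -0.97, 0.37 and -0.62 and split by dye in the same way, and the mean of -0.33 was not called (adjusted p = 0.099). The lowest group was the double mutant, followed by the triple mutant. The ranges of the triple mutant, H3K4A and set1 overlapped, and the triple mutant differed from set1 by -0.43 with a 95% interval from -0.82 to -0.03 (adjusted p = 0.10), a difference called without set1htz1sir2 replicate 2 (-0.57, adjusted p = 0.040) and at -0.26 without its replicate 4 (adjusted p = 0.35).

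GIT1 encodes the permease for glycerophosphoinositol and glycerophosphocholine, phosphate-bearing products of lipid breakdown. It was the member with the highest level in H3K4A, where its log2 ratios were 1.15, 0.64, 0.53 and 1.04. It was called higher there by 0.84 ± 0.10 (adjusted p = 6.1e-05), by 1.32 after quantile normalization, and was not called with H3K4A fitted alone (adjusted p = 0.070). In set1htz1 GIT1 read 0.06, 0.07, 0.12 and -0.27, and in set1htz1sir2 0.39, 0.45, 0.52 and 0.34. It was not called in the double mutant (-0.01 ± 0.10, adjusted p = 0.97) and rose in the triple mutant (0.43 ± 0.10, adjusted p = 0.0023). The double and triple groups did not overlap, but the difference of 0.43, with a 95% interval from 0.12 to 0.74, missed the threshold (adjusted p = 0.062). It passed with the compared groups fitted alone (adjusted p = 0.012) and without H3K4A replicate 1 (adjusted p = 0.036) or replicate 3 (adjusted p = 0.049), which belong to neither mutant and enter through the shared spread and dye term. GIT1 lies beside the silent mating locus HMR. An entry with the systematic name of the HMR a1 gene and the suffix a, picked after its values were seen, read 2.32, 4.48 and 3.06 on the 3 arrays of set1htz1sir2 with a value. It lay between -0.79 and 0.74 in set1. In H3K4A, where GIT1 was highest, it read -0.62, 0.71 and 0.04 on the arrays with a value. It had no value in set1htz1, so that it could not be compared with the double mutant. A second entry, with the suffix b, had no value in set1htz1, set1htz1sir2 or H3K4A. A link between HMR and GIT1 was not tested.

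PHO86 encodes an endoplasmic reticulum protein that Pho84 needs to leave for the plasma membrane. Its log2 ratios were -0.27, -0.54, -0.34 and -1.56 in set1htz1 and -0.27, -0.62, 0.45 and -0.47 in set1htz1sir2. The ranges overlapped, and in both groups the means with the mutant in Cy3 were lower than those in Cy5. PHO86 fell in the double mutant (-0.68 ± 0.15, adjusted p = 0.0010) and was not called in the triple mutant (-0.23 ± 0.15, adjusted p = 0.21). The difference between them was 0.45 with a 95% interval from 0.01 to 0.89 (adjusted p = 0.17), and 0.24 without set1htz1 replicate 4 (adjusted p = 0.49). PHO86 also carried a dye term, of 0.63 (adjusted p = 0.0070).

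PHO81 encodes the inhibitor of the Pho80-Pho85 kinase and is itself induced by phosphate starvation. In set1htz1 it read -0.71, -0.79, -0.74 and -0.40, and in set1htz1sir2 -0.29, -0.18, -0.12 and -0.07. All 8 arrays lay below 0 and the groups did not overlap, with a gap of 0.11. PHO81 fell in the double mutant (-0.66 ± 0.15, adjusted p = 0.0014), was not called in the triple mutant (-0.17 ± 0.15, adjusted p = 0.39), and the difference of 0.50 missed the threshold (95% interval 0.05 to 0.94, adjusted p = 0.14). In set1, which shares the spread, the arrays with the mutant in Cy5 averaged -0.78 and those in Cy3 averaged 0.33. With a dye term for each group the adjusted p was 0.039, and with the compared groups fitted alone it was 0.0068. Of the 10 members, 5 had groups that did not overlap in the higher direction (SPL2, PHO89, PHM6, GIT1 and PHO81), where 12.6% of all tested genes had none.

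PHM6 is a gene of unknown function that was named for phosphate metabolism. It had the widest span of the 10 members between its lowest and highest fitted group mean, from -1.50 in set1htz1 to 0.35 in set1. Its log2 ratios were -1.94, -1.15, -1.32 and -1.60 in set1htz1, and -0.92, -0.51, -0.74 and -0.54 in set1htz1sir2. The triple mutant was higher on all 4 arrays than the highest array of the double mutant, yet stayed below wild type. PHM6 was at 35.3% of wild type in the double and at 62.5% in the triple mutant, with fitted log2 ratios of -1.50 ± 0.11 (adjusted p = 2.2e-08) and -0.68 ± 0.11 (adjusted p = 1e-04). The difference was 0.83 ± 0.16 (1.77-fold, adjusted p = 0.0028), with 0.80 in Cy5 and 0.85 in Cy3. The order of PHM6 across the mutants was double, triple, H3K4A and set1, and the triple mutant differed from set1 by -1.03 ± 0.16 (adjusted p = 0.00017), with no overlap. In set1 its arrays read 0.32, 0.15, 0.43 and 0.50. H3K4A, at 0.06, 0.40 and 0.17 on the 3 arrays with a value, overlapped with set1.

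The 3 genes of the vacuolar transporter chaperone complex, which makes polyphosphate and moves it into the vacuole, are the last members. VTC4 encodes the catalytic subunit, VTC3 an accessory subunit with an SPX domain, which binds inositol pyrophosphates, and VTC1 the small membrane subunit. VTC3 read -1.09, -1.32 and -1.56 on the 3 arrays of set1htz1 with a value, and -0.67, -0.86, -0.56 and -1.32 in set1htz1sir2. All 7 values were at or below -0.56, the lowest array of set1, whose arrays split by dye. VTC3 fell in both, by 1.41 ± 0.17 in the double (adjusted p = 4e-06) and by 0.85 ± 0.14 in the triple mutant (adjusted p = 1e-04). VTC3 carried a dye term of 0.53 (Cy5 minus Cy3, adjusted p = 0.026), and its missing value in set1htz1 was on array 2, with the mutant in Cy3. The triple mutant was higher by 0.59 in Cy5 and by 0.47 in Cy3. The groups overlapped, and the difference of 0.56, with a 95% interval from 0.10 to 1.02, missed the threshold (adjusted p = 0.10). It passed with a dye term for each group (0.53, adjusted p = 0.025) and with the compared groups fitted alone (0.54, adjusted p = 0.014).

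VTC4 had -0.69, -0.79 and -0.67 on its 3 arrays of set1htz1 and -0.32, -0.71, -0.17 and -0.67 in set1htz1sir2. The triple mutant split by dye, with both Cy3 arrays at the level of the double mutant. VTC4 was called lower in the double mutant (-0.68 ± 0.22, adjusted p = 0.015; 0.16 without set1htz1 replicate 3) and, close to the threshold, in the triple mutant (-0.47 ± 0.19, adjusted p = 0.044). The latter call was lost in 12 of 25 alternatives, among them those without set1 replicate 1, H3K4A replicate 4, set1htz1 replicate 2 or 4 and any 1 replicate of set1htz1sir2 (adjusted p from 0.050 to 0.14). The difference between triple and double was 0.21 with a 95% interval from -0.39 to 0.81, which holds changes in either direction.

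VTC1 was the only subunit not called in the double mutant, where it read 0.11, -0.49, 0.23 and -0.45 and split by dye. In set1htz1sir2 it read 0.32, 0.03, 0.37 and 0.50, above 0 on every array. VTC1 was called higher in the triple mutant (0.31 ± 0.12, adjusted p = 0.041), a call lost without set1htz1sir2 replicate 1, 3 or 4 (adjusted p = 0.075, 0.097 and 0.25), after quantile normalization (0.096) and without the dye term (0.059). Its difference between triple and double was 0.46 with a 95% interval from 0.10 to 0.81 (adjusted p = 0.084), and lay at 0.18 in the Cy5 and 0.74 in the Cy3 orientation. It passed without H3K4A replicate 1 (adjusted p = 0.031), with a dye term for each group (0.037) and with the compared groups fitted alone (0.032).

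**Figure D2:**
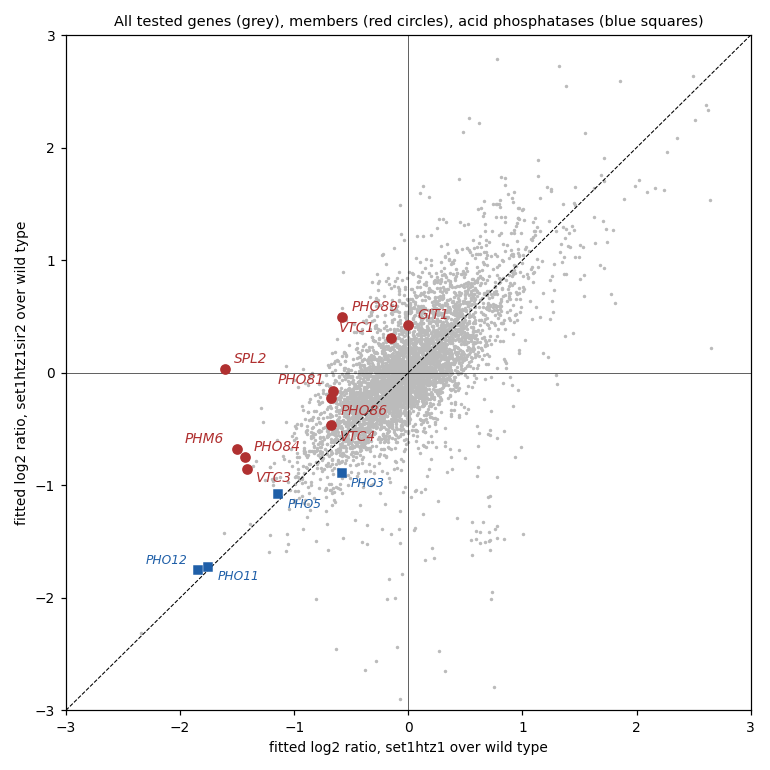
Fitted log2 ratio over wild type in set1htz1 (horizontal axis) and set1htz1sir2 (vertical axis) for all 5147 tested genes in grey, the 10 members as red circles and 4 acid phosphatase genes as blue squares, with the line of equal ratios dashed and 5 genes outside the axes. All 10 members lie above the line, SPL2 farthest at -1.61 and 0.03, while PHO12 lies beside it at -1.84 and -1.76.

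In set1 1 of the 10 members rose, PHM6 (0.35 ± 0.11, adjusted p = 0.042), where 9.05% of all tested genes were higher. None was called lower by limma, against 9.79% of all tested genes, and 1, PHO84, was lower at an unadjusted p under 0.05, against 17.2% of them. The PHM6 call was lost, with adjusted p between 0.050 and 0.16, without set1 replicate 1, 3 or 4, H3K4A replicate 4 or set1htz1sir2 replicate 2, 3 or 4, after quantile normalization and without the dye term. For 4 other members the set1 arrays fell on either side of 0 by dye. PHO86 read 0.37, -0.81, 0.18 and -0.64, VTC3 0.64, -0.56, 0.66 and -0.51, and VTC4 0.18, -0.43, 0.75 and -0.74, with the Cy5 arrays 1 and 3 above 0 and the Cy3 arrays below it. PHO81 ran the other way, at -0.56, 0.45, -1 and 0.21. GIT1 lay between 0.04 and 0.40 and VTC1 between 0.03 and 0.28, above 0 on all 4 arrays.

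Loss of H2A.Z on top of loss of Set1 was asked with the double mutant against set1. This comparison uses the same arrays of set1htz1 as the one above, so that they are not independent. Of the 10 members 5 were lower, against 10.3% of all tested genes: PHM6 (-1.85 ± 0.16, adjusted p = 8.9e-07), VTC3 (-1.47 ± 0.22, adjusted p = 0.00025), SPL2 (-1.46 ± 0.14, adjusted p = 1.3e-06), PHO84 (-1.11 ± 0.19, adjusted p = 0.00069) and PHO89 (-0.58 ± 0.17, adjusted p = 0.021). No member was called higher by limma, nor was any higher at an unadjusted p under 0.05, against 9.03% and 15% of all tested genes. At that unadjusted threshold 7 were lower against 17.6%. For 4 members (PHM6, SPL2, VTC3 and PHO89) the groups did not overlap, as for 10.2% of all tested genes in this direction. The call for PHO89 was lost without set1 replicate 3 or 4 or set1htz1 replicate 4 (adjusted p = 0.051, 0.076 and 0.058), after quantile normalization (0.12) and without the dye term (0.057). VTC4, at -0.62 (adjusted p = 0.14), was called with a dye term for each group (adjusted p = 0.016) and was at -0.39 without set1 replicate 3 (adjusted p = 0.33) and at -0.47 without set1htz1 replicate 3 (adjusted p = 0.41). PHO81 was called when set1 replicate 3 was left out (-0.66, adjusted p = 0.026) but not with all arrays (-0.44, adjusted p = 0.16), and was at -0.25 without set1 replicate 2 (adjusted p = 0.43). The double mutant also differed from set1 at MET17 (-6.08 ± 0.27, adjusted p = 1.3e-10) and at LYS2 (2.42 ± 0.22, adjusted p = 1.3e-06), so that loss of H2A.Z cannot be told apart from further differences between these strains. No mutant of HTZ1 alone was analysed here.

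Between the triple mutant and set1, 3 members differed: 2 were lower, against 14.1% of all tested genes, and 1 was higher, against 14.6%. PHM6 was lower, as given above, and VTC3 differed by -0.91 ± 0.20 (adjusted p = 0.0029). PHO89 was higher by 0.50 ± 0.17 (adjusted p = 0.031), a call lost without set1 replicate 1 or 2 or set1htz1sir2 replicate 1 or 4 (adjusted p from 0.069 to 0.11), after quantile normalization (0.17) and without the dye term (0.071). The median difference over the 10 members was 0.03, with 5 above and 5 below 0. The triple mutant also differed from set1 at MET17 (-5.58 ± 0.27, adjusted p = 1.9e-10), while LYS2 was not called (adjusted p = 0.99). Loss of HTZ1 and SIR2 thus cannot be told apart from further differences between these strains.

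In H3K4A 2 of the 10 members rose, GIT1 and PHO89, where 3.59% of all tested genes rose. None fell by limma, against 0.602% of all tested genes, and 1, PHO84, was lower at an unadjusted p under 0.05, against 6.66%. PHO89 read 0.42, 0.24 and 1.01 on the 3 arrays with a value and had a fitted log2 ratio of 0.51 ± 0.14 (adjusted p = 0.043), and of 0.84 after quantile normalization. This call was lost in 13 of 25 alternatives, which include leaving out H3K4A replicate 4 (0.33, adjusted p = 0.37) or replicate 3 (0.59, adjusted p = 0.11), set1 replicate 1, any 1 replicate of set1htz1 or replicate 1, 2 or 3 of set1htz1sir2 (adjusted p from 0.050 to 0.060). PHO84 was at -0.44, -0.78 and -0.58 on its 3 arrays, below 0 on each, and was not called (fitted -0.46 ± 0.16, adjusted p = 0.13), although it passed after quantile normalization (-0.71, adjusted p = 0.0057) and with a dye term for each group (-0.56, adjusted p = 0.036). Without H3K4A replicate 1 only the Cy3 arrays of PHO84 remained in H3K4A, at -0.78 and -0.58. The fitted ratio was then -0.18 (adjusted p = 0.68), with the dye term coming from the other groups alone. The other members had fitted ratios between -0.26 and 0.19. The deposited description gives total RNA as the starting material for H3K4A and mRNA for the other mutants, while all the labels name polyA RNA. Of the called genes in H3K4A 85.6% rose with the ratios as deposited and 58.3% after quantile normalization, which called 786 genes in place of 216.

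**Figure D3:**
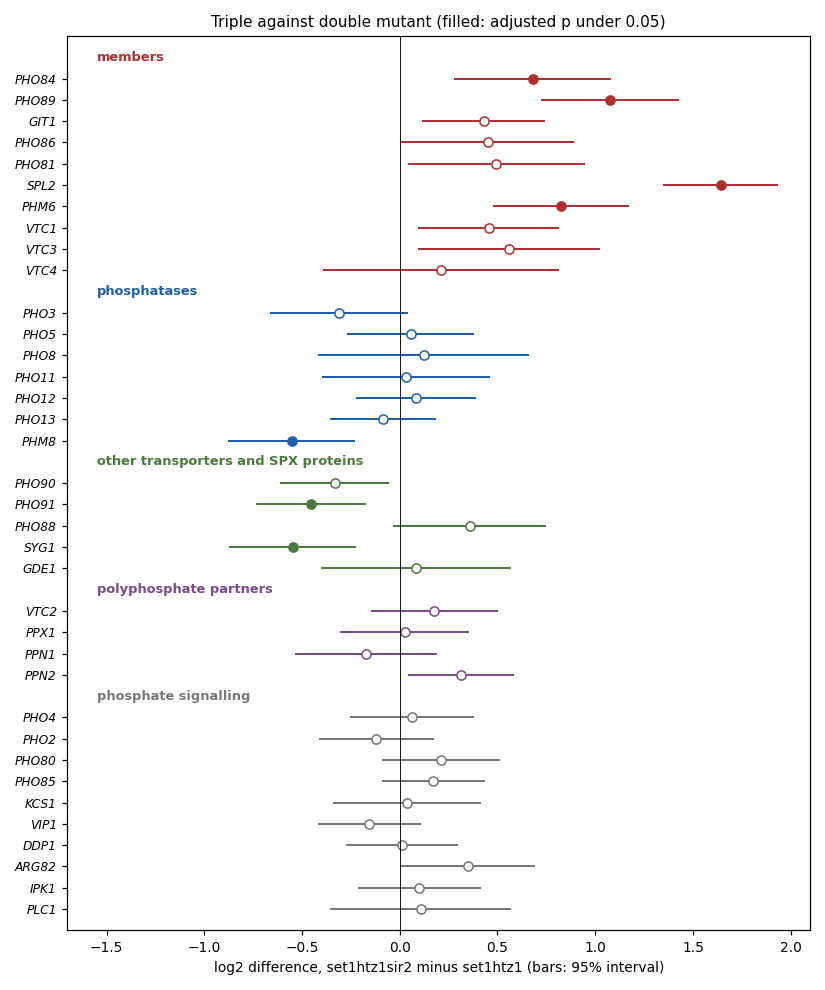
Log2 difference of set1htz1sir2 minus set1htz1 (horizontal axis) with 95% intervals for the 10 members and for the other tested genes of the phosphate system, grouped by role (vertical axis). Filled points have an adjusted p under 0.05. SPL2, PHO89, PHM6 and PHO84 are filled and to the right of 0, whereas PHM8, PHO91 and SYG1 are filled and to the left.

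The rest of the phosphate system was read from 4 lists of other genes. Of 7 phosphatase genes, none was higher in the triple than in the double mutant by limma, nor at an unadjusted p under 0.05, and 1 was lower, PHM8, which encodes a lysophosphatidic acid phosphatase (-0.55 ± 0.15, adjusted p = 0.023). With 7.25% of all tested genes higher and 5.4% lower, and 15.6% higher unadjusted, these counts are near the background. The genes for the secreted acid phosphatases, which like PHO84 are targets of Pho4, fell in both mutants. PHO5 was at -1.14 ± 0.11 in the double and -1.08 ± 0.11 in the triple mutant, each with 3 arrays, and their difference was 0.06 with a 95% interval from -0.26 to 0.38. PHO12 was at -1.84 and -1.76, with a difference of 0.09 and an interval from -0.22 to 0.39, and PHO11 at -1.75 and -1.72, with a difference of 0.03 and an interval from -0.39 to 0.46. These intervals lie below that of SPL2, 1.35 to 1.93, and overlap with that of PHO84, 0.28 to 1.08. Differences between genes were not tested. After quantile normalization PHO12 was higher in the triple mutant (0.91, adjusted p = 0.0026) and PHO11 had a difference of 0.78 that was not called. PHO3, PHO5, PHO11 and PHO12 are close in sequence, so that their spots may share signal.

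Of 5 other tested genes for transporters and SPX proteins, 2 were lower in the triple than in the double mutant and 0 higher by limma, with 3 lower and 0 higher at an unadjusted p under 0.05. The shares over all tested genes were 5.4% and 7.25%, and 11.4% and 15.6% unadjusted. PHO91, which encodes a vacuolar phosphate transporter, read between -0.18 and 0.11 in set1htz1 and between -0.54 and -0.36 in set1htz1sir2 (difference -0.45 ± 0.13, adjusted p = 0.030). SYG1, a gene for a membrane protein with an SPX domain, differed by -0.55 ± 0.15 (adjusted p = 0.023). These are the opposite of the direction of PHO84 and PHO89. The PHO91 call was lost without replicate 1, 2 or 3 of set1htz1 or any 1 replicate of set1htz1sir2 (adjusted p from 0.054 to 0.11). That of SYG1 was lost without the dye term (adjusted p = 0.096), without set1htz1 replicate 2 or 3 or set1htz1sir2 replicate 1 or 4 (adjusted p from 0.076 to 0.091), and that of PHM8 without set1htz1 replicate 2 or 3 or set1htz1sir2 replicate 1, 3 or 4 (adjusted p from 0.060 to 0.090). All 3 were lost after quantile normalization.

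Among 4 tested partners of polyphosphate metabolism, 3 fell in the double mutant and the same number in the triple mutant, against 26.3% of all tested genes in each. VTC2, whose product takes the place of Vtc3 in a second form of the polymerase, was at -0.97 ± 0.11 and -0.80 ± 0.11. PPN2, which encodes a vacuolar polyphosphatase, was at -1.09 ± 0.09 and -0.77 ± 0.09, and the cytosolic polyphosphatase gene PPX1 at -0.52 ± 0.11 and -0.50 ± 0.11. None of the 4 differed between triple and double by limma, where 7.25% of all tested genes were higher and 5.4% lower. At an unadjusted p under 0.05, 1 was higher, against 15.6% of all tested genes.

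Of the 10 genes of phosphate signalling, 4 fell and 1 rose in the double mutant, and in the triple mutant 3 fell and 2 rose. Over all tested genes 26.3% fell and 21.2% rose in the double mutant, and 26.3% and 24.1% in the triple mutant, so the counts are near the background. PHO80, which encodes the cyclin of the kinase, was 1 of the 2 that rose in the triple mutant (0.25 ± 0.10, adjusted p = 0.044). That call was lost in 11 of 26 alternatives, which include those without set1 replicate 1 or 4, H3K4A replicate 3 or 4, set1htz1 replicate 2 or 4 and set1htz1sir2 replicate 2, 3 or 4 (adjusted p from 0.051 to 0.26). PHO2, which encodes the partner of Pho4, fell in both (-0.36 ± 0.10, adjusted p = 0.0056, and -0.48 ± 0.10, adjusted p = 0.00049). PHO4 itself was called lower in the double mutant (-0.33 ± 0.11, adjusted p = 0.016, but 0.087 without set1htz1 replicate 3) and, close to the threshold, in the triple mutant (-0.26 ± 0.11, adjusted p = 0.044). The latter call was lost in 12 of 26 alternatives, which include those without set1 replicate 1, set1htz1 replicate 1, 2 or 4 and set1htz1sir2 replicate 1, 2 or 3 (adjusted p from 0.051 to 0.21). Between triple and double none of the 10 was called by limma, where 7.25% of all tested genes were higher and 5.4% lower. At an unadjusted p under 0.05, 1 was higher, against 15.6%, so these counts too are near the background. PHO4 differed by 0.06 (95% interval -0.25 to 0.37) and PHO2 by -0.12 (95% interval -0.41 to 0.17).

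Position along the chromosome was read from the order of genes in the RefSeq table of assembly R64. The 3 protein-coding genes on each side of the 4 members that were higher in the triple mutant gave 24 neighbours, of which 18 were tested. None was called higher by limma, with 4 higher at an unadjusted p under 0.05. By limma 1 was lower, with 3 lower at the unadjusted threshold. Over all tested genes 7.25% were higher, 15.6% higher unadjusted, 5.4% lower and 11.4% lower unadjusted, so the counts pooled over the 4 members are near the background. The gene called lower was VBA2, a vacuolar amino acid transporter gene 3 places from PHO89 (-0.79 ± 0.12, adjusted p = 0.00031). All 3 that were lower unadjusted were among the 5 tested neighbours of PHO89, the others being SUL1 (-0.58, adjusted p = 0.082) and MAL31 (-0.42, adjusted p = 0.14), which were not called.

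Across the 4 mutants, the tested genes most like PHO84 outside the list were found by the root mean square difference of their 4 fitted log2 ratios. They were MRP13, a mitochondrial ribosomal protein gene, at 0.13, PPN2 and the decapping gene DCP1 at 0.24 each, SRP72 at 0.24 and SEC65 at 0.25, the last 2 for parts of the signal recognition particle. Closest to GIT1 were YBR116C at 0.13, YFL057C at 0.17, YCRX21C at 0.18, the aryl-alcohol dehydrogenase gene AAD14 at 0.21 and YOR387C at 0.24. In the double mutant MRP13 was at -1.33 beside -1.43 for PHO84, and in the triple mutant at -0.79 beside -0.75.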

How the data were processed

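Cultures, RNA and arrays are those of the deposited description and the labels. Per the deposited description, the authors read the scans with GenePix, dropped spots that were dim or had a poor pixel regression, and scaled ratios to total signal; they deposited log2 ratios, mutant over wild type, for each array. The sources used here do not name a genome build or print probe sequences. The base was checked from the values, as mutant over wild type, or in the better of both orientations for H3K4A. Under base 2, 100% of the values that could be tested were whole steps of a ratio. At most 22.2% were under base 10 and 21.1% under base e. Each array gave 9 to 41 values, or 26 to 109 in H3K4A. Inverted ratios of set1, set1htz1 and set1htz1sir2 gave 100% under every base and could not decide. Precision is limited by the 4 arrays per mutant, described by the authors as independent biological replicates.

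Of 6282 entries, 296 carry a prefix z of unstated meaning; entries of 1 ORF were averaged to 6074 genes, of which 5539 matched the RefSeq table of assembly R64, used for names and gene order. No further normalization was applied. limma 3.58.1 in R 4.3.3 fitted 16 arrays with 4 group means and 1 shared dye term, for genes with a value on at least 3 arrays of every group; calls had a Benjamini-Hochberg adjusted p under 0.05 over all 5147 genes. Errors after ± are limma's standard errors unless SD is written. The fit was tested on data simulated from the same model, with independent noise and the shared dye term. Such data cannot show how dye effects that differ between groups would change the calls. Members not measured on an array were fitted without it. The 10 members, the other gene lists and the tests were chosen with earlier results of these data known; every member is named, called genes of the lists are named for the triple against the double mutant, other list genes as examples, likeness and neighbours by fixed rules. Alternatives were array centring, quantile normalization, other dye terms, array number as a block, other handling of the z entries, other filters on missing values, robust trended moderation, fitting the compared groups alone, and leaving out each array. Array numbers were not taken to pair the samples. Residuals of same-numbered arrays of different mutants correlated from -0.53 to 0.29, above 0.1 in 4 of 24 pairs. Those of other-numbered arrays correlated from -0.51 to 0.53, above 0.1 in 31 of 72 pairs. Between set1htz1 and set1htz1sir2 the same-numbered correlations were 0.29, 0.27, 0.001 and -0.06 for arrays 1 to 4, so that a pairing of some arrays there is not excluded.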

Additional observations from a re-analysis of the deposited data

Results flagged for a closer look

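In 2 of 34 sets of 4 arrays of a member, 1 array stood apart from the other 3 by Dixon's test at its 95% critical value, which chance gives in about 1 in 20 sets. GIT1 in set1htz1 was -0.27 on array 4 and between 0.06 and 0.12 on the others; without that array its log2 ratio in the double mutant was 0.09 (adjusted p = 0.57) and the triple mutant was higher by 0.34 (adjusted p = 0.18). VTC1 in set1 was 0.28 on array 3 and between 0.03 and 0.07 on the others; without that array its log2 ratio was 0.08 (adjusted p = 0.77).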

How the results depend on the processing

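Of 665 results of single members under alternatives to the processing, 633 kept their direction and their side of the threshold, 17 lost a call, 10 gained one and 5 changed sign. Of 1120 with 1 array left out, 1054 kept both, 41 lost a call, 5 gained one and 20 changed sign. SPL2, PHO89 and PHM6 stayed higher in the triple than in the double mutant under every alternative that was run for them. For triple against double, the 651 genes called became 243 after quantile normalization, 408 without the dye term and 1278 with the compared groups fitted alone, and 344 to 854 with 1 array left out, the lowest counts coming without set1htz1 replicate 3 (344) or set1htz1sir2 replicate 1 (354) or 3 (399). The 4 members called became 7 with a dye term for each group, where 906 genes were called, and 8 fitted alone. Where a value on all 4 arrays was required, 1 of 5 tested members was called, beside 528 of 3665 genes. That filter, which tests only 5 members, left 0 members called in set1 against 1, 1 in H3K4A against 2 and 3 in the double mutant against 8. Of the 3665 genes it tests, 694, 162 and 1790 were called in these mutants. It left 2 members in the triple mutant against 7, 1 for double against set1 where 5 were called and 0 for triple against set1 where 3 were called. The counts over all genes are not given for these last comparisons. PHO84, PHO89, PHM6, VTC3 and VTC4 lacked a value on some array and were not tested under this filter. The member calls it removed were all of these genes, so that they were not lost on testing. In set1 no member was called after quantile normalization or without the dye term, and 0 or 1 with 1 array left out, when 595 (without set1 replicate 4) to 1148 genes were called. In H3K4A the 216 genes called became 786 after quantile normalization, 136 without the dye term (1 member), 23 fitted alone (0 members) and 129 (without H3K4A replicate 4) to 249 with 1 array left out (1 or 2 members). Quantile normalization called 589 genes in place of 995 for double against set1 and 830 in place of 1479 for triple against set1. With 1 array left out the former ranged from 658 (without set1htz1 replicate 3) to 1172.

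Some values changed sign. After centring and after quantile normalization PHO89 in set1 was 0.015 and 0.00074, and PHO86 for triple against set1 0.0075 and 0.013. After centring GIT1 in the double mutant was 0.025. With 1 array left out, set1 ranged from -0.12 to 0.13 for PHO89, -0.067 to 0.19 for VTC3 and -0.32 to 0.15 for VTC4. H3K4A ranged from -0.19 to 0.064 for PHO86, -0.21 to 0.096 for PHO81 and -0.51 to 0.0083 for VTC3. The double mutant ranged from -0.048 to 0.089 for GIT1, -0.032 to 0.056 for PHO91 and -0.013 to 0.11 for PHO80, and the triple mutant from -0.057 to 0.077 for SPL2. Triple against set1 ranged from -0.13 to 0.13 for PHO86 and -0.16 to 0.25 for PHO81. Triple against double ranged from -0.020 to 0.14 for PHO5, -0.14 to 0.30 for PHO11, -0.031 to 0.11 for PPX1, -0.010 to 0.12 for PHO4 and -0.17 to 0.020 for PHO2. The cause was not tested.

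With array number as a replicate block, triple against double had 562 of 5147 genes and 4 members called. The genes called were 890 in set1, 183 in H3K4A and 2368 in the double mutant, with 1, 2 and 8 members among them. Double against set1 and triple against set1 kept their 5 and 3 members. The triple mutant against wild type had 6 members called, VTC4 having lost its call (adjusted p = 0.0502). The counts over all tested genes are not given for these comparisons, so that their member counts are not read against a background. The array numbers were not taken as pairs. Signal over background cannot be given, since the files hold ratios only.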

Other observations

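In H3K4A, the mutant with the fewest called genes, 4 of the 7 phosphatase genes were called higher, against 3.59% of all tested genes. None was called lower by limma, against 0.602%, nor was any lower at an unadjusted p under 0.05, against 6.66%. As given above, PHO3, PHO5, PHO11 and PHO12 are close in sequence, so that their calls may share signal and are not separate evidence. The log2 ratio was 0.59 ± 0.09 for PHO5 (adjusted p = 0.0010), which encodes the main repressible acid phosphatase, 0.56 ± 0.11 for the constitutive acid phosphatase gene PHO3 (adjusted p = 0.0043), 0.46 ± 0.11 for PHM8 (adjusted p = 0.018) and 0.37 ± 0.10 for PHO12 (adjusted p = 0.044). All 4 arrays were above 0 for each, and after quantile normalization PHO5, PHO12 and PHM8 were at 0.93, 0.57 and 0.72. PHO11 had 0.42 and was not called (adjusted p = 0.13), except after quantile normalization or without set1htz1 replicate 1 (adjusted p = 0.023 and 0.024). The PHM8 call was lost without H3K4A replicate 1, 3 or 4 (adjusted p = 0.094, 0.053 and 0.057), and that of PHO12 in 14 of 26 alternatives, which include leaving out any 1 array of H3K4A or set1htz1sir2 or replicate 1 or 4 of set1htz1 (adjusted p from 0.054 to 0.18). Without the dye term PHO3 and PHO12 were not called (adjusted p = 0.16 and 0.20). With H3K4A fitted alone none of these genes was called. In the double and triple mutants PHO3, PHO5 and PHO12 were called lower, so that their direction in H3K4A was the opposite. PHM8 was above 0 and not called in the double mutant (0.20, adjusted p = 0.14). In the triple mutant it was lower (-0.355, adjusted p = 0.011), but not without set1htz1sir2 replicate 3 or 4 (adjusted p = 0.063 and 0.073). These comparisons have separate wild-type cultures, and the difference between H3K4A and those mutants was not tested.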
